A study of Mus musculus with 12 samples.

Results

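The nuclei described here were forebrain nuclei carrying transcripts of Tfap2d, the gene for the AP-2 delta transcription factor, together with Nrp2 or Piezo2. They were chosen by raw counts. A nucleus was a member if it held at least 1 unique molecular identifier (UMI, the tag that marks 1 captured RNA molecule) of Tfap2d, at least 2 UMIs of Nrp2 and Piezo2 together, and 0 UMIs of Gad1 and Gad2. Nuclei were first kept at 800 to 6000 UMIs, 300 to 3000 genes and at most 1% mitochondrial UMIs. Of 126684 deposited barcodes, 101803 passed and 489 of these were members (0.480%), 389 in WT and 100 in Het libraries.

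The libraries came from the forebrain of mice at postnatal day 1, with 1 animal per library, drawn from 4 litters that the labels do not assign to libraries. Of the 8 wild-type (WT) animals 5 were male and 3 female, and of the 4 heterozygous (Het) animals 3 were male and 1 female. Het animals carry 1 copy of a Myt1l frameshift allele made in the C57BL/6 background and were bred with C57BL/6J mice. The study's text names the forebrain and in one place the prefrontal cortex. Libraries are named by genotype and a running number, and WT 6, WT 7, WT 8 and Het 4 were female. Each library held between 15439429 and 40784144 UMIs, and 0 barcodes were shared between libraries.

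AP-2 factors bind DNA as dimers and act in the development of several tissues. Tfap2d is known for its part in the developing midbrain. Nrp2 codes for neuropilin-2, a receptor subunit for class 3 semaphorins, which steer growing axons. Piezo2 codes for a channel opened by mechanical force. Thsd7a, the marker that the rule did not use, codes for a membrane protein with thrombospondin repeats. Gad1 and Gad2 code for the enzymes that make GABA, so a count of 0 in both removes many inhibitory nuclei. In GRCm38 (mm10) Tfap2d lies on the plus strand of chromosome 1 from 19103022 to 19166346, Nrp2 on the plus strand of chromosome 1 from 62703285 to 62818695, and Thsd7a on the minus strand of chromosome 6 from 12311610 to 12749410.

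A set of 3 libraries stood apart before any comparison. WT 7 had 4 members, Het 2 had 5 and Het 3 had 6, while the other 9 libraries had 25 to 80. Members of WT 7 and Het 3 were low in the marker that the rule did not use, with a Thsd7a UMI in 50% and 66.7% of them. Their Thsd7a level, in CPM (a gene's UMIs relative to all UMIs of those nuclei of a library, on the usual counts-per-M scale), was 214 and 525, against 2240 to 3155 in the other 10 libraries. Galntl6, a glycosyltransferase-family gene, stood at 107 CPM in WT 7 and 195 CPM in Het 3, against 3358 to 14340 elsewhere. Bmp6, a secreted ligand of the TGF-beta superfamily, was at 0 in both. The 5 members of Het 2 had 11993 CPM of Galntl6 and 217 CPM of Bmp6. Results across genes are therefore also given for the 9 libraries with at least 10 members, 7 WT and 2 Het, a choice made after seeing the data.

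The label was checked against marker lists. Markers of excitatory neurons were present but sparse. Slc17a6, the vesicular glutamate transporter 2, had a UMI in 31.9% of members, and the transcription factors Neurod2 and Tbr1 of excitatory neurons in 32.5% and 26.6%. Slc17a7, the vesicular glutamate transporter 1, had a UMI in 3.07%. Slc32a1, the vesicular GABA transporter, had a UMI in 1 of 489 members. Of the 12 genes of the inhibitory list, Adarb2 alone was abundant, with 993 UMIs over all members and a UMI in 46.2% of them. The other genes of that list had 0 to 7 UMIs each, where Gad1 and Gad2 are at 0 by the rule. Adarb2 stood at 491 to 915 CPM in members of the 9 libraries with at least 10 members and at 210 to 535 CPM in other excitatory nuclei. Dlx6os1, an interneuron marker, stood at 4.70 CPM in pooled members and 14.4 CPM in other excitatory nuclei. The 8 genes of the excitatory list summed to 629 to 1602 CPM in members over the 12 libraries and to 2302 to 3626 CPM in other excitatory nuclei (629 to 857 and 2302 to 3129 CPM in the 9 libraries), and the other nuclei had been chosen on 5 of them. The label of excitatory neuron thus rests on few transcripts. At least 2 UMIs of glial, vascular or microglial markers were found in 44 members. Of the members, 167 (34.2%) had no UMI of Slc17a7, Slc17a6, Neurod2, Neurod6 or Tbr1, and 191 (39.1%) had at least 2. Of all 79635 Gad-negative nuclei, members included, 10887 had at least 2. Members had a median of 2882 UMIs and all filtered nuclei 2000. Pooled members had Slc17a6, Neurod2, Tbr1, Neurod6 and Slc17a7 at 155, 144, 108, 47.7 and 11.4 CPM. The 2610 nuclei that met the other conditions without a Tfap2d UMI had them at 85.3, 65.9, 51.2, 34.0 and 16.5 CPM. In Het 3, Slc17a6, Neurod2, Neurod6 and Slc17a7 were all at 0 over its 6 members, and 0 of these members had at least 2 UMIs of the 5 genes. The whole excitatory list summed to between 669 and 1084 CPM in members of each Het library, in Het 3 from the remaining genes of the list. Lmo3, a transcription cofactor on the amygdala and piriform list, was high, but Sim1 and Otp of that list were at 0 UMIs and Lhx9 had 1 UMI. Fezf2, the layer 5 transcription factor, was at 0 UMIs.

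Thsd7a had a UMI in 84.7% of members. Members with 1, with 2 and with at least 3 Tfap2d UMIs had Thsd7a at 1905, 2718 and 3508 CPM. These values describe nuclei on the inside of the threshold. Just outside it, 2610 nuclei that met the other conditions but had no Tfap2d UMI had Thsd7a at 430 CPM, with a UMI in 35.0% of them. The 325 nuclei with Tfap2d but 1 UMI of Nrp2 and Piezo2 together had Thsd7a at 2307 CPM, and the 1203 with none had 865 CPM. The 35 nuclei with 1 Gad1 or Gad2 UMI that otherwise met the rule had Thsd7a at 2623 CPM.

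Members entered the rule in different ways. Nrp2 alone brought in 243, Piezo2 alone 64 and both genes 182. Adarb2, an RNA-editing family gene also used as an interneuron marker, stood at 967 CPM where Nrp2 alone counted, 325 where Piezo2 alone counted and 395 where both did. Lmo3 stood at 436, 485 and 627 CPM in the same order. These are pooled levels with no replicate error.

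Free RNA in the preparation can place a UMI in a nucleus that does not express the gene. Tfap2d had a UMI in 0.838% of 5726 inhibitory nuclei, defined by at least 3 UMIs of Gad1 and Gad2 (exact binomial 95% interval 0.619 to 1.11%, median 2904 UMIs), and in 5.77% of 10887 excitatory nuclei (5.34 to 6.22%, median 2882 UMIs). The Tfap2d, Nrp2 and Piezo2 conditions together held in 0.140% of the inhibitory nuclei (0.0603 to 0.275%) and in 1.75% of the excitatory nuclei (1.52 to 2.02%). The 191 excitatory nuclei that met them were all members, so the 1.75% and the 5.77% include members. The same conditions held in 0.283% of 1060 endothelial nuclei (0.0584 to 0.825%, median 2014 UMIs). They held in 0.0952% of 1050 oligodendrocyte-lineage nuclei (0.00241 to 0.529%) and in 0 of 196 microglial nuclei. Since these sets are compared on the rule's own genes, the contrast does not measure free RNA. The intervals cover counting error only. The members of WT 7, Het 2 and Het 3 were 0.0392, 0.0466 and 0.0511% of all filtered nuclei, a different denominator. The part of free RNA in these low shares was not tested. The members of Het 2, WT 7 and Het 3 held 13841, 18731 and 25694 UMIs in all, so the Bmp6 level given above for Het 2 rests on few UMIs.

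The share of members in each library was set against genotype to ask whether loss of 1 functional Myt1l allele changed how many of these nuclei there were. In WT libraries members made up 0.0392 to 1.17% of filtered nuclei, with a median of 0.797%. In Het libraries they made up 0.401% (Het 1), 0.0466% (Het 2), 0.0511% (Het 3) and 0.510% (Het 4). The groups overlapped, since WT 7 was lowest of all 12 and WT 2, at 0.341%, lay below Het 1 and Het 4. The WT mean was 0.720% ± 0.372 (SD, n = 8). The Het mean was 0.252% ± 0.239 (SD, n = 4). The difference did not pass the threshold (exact permutation test, two-sided p = 0.0606, adjusted p = 0.0606 over 3 denominators; the smallest p this design allows is 0.00404). Among Gad-negative nuclei the means were 0.904% and 0.327%, and among excitatory nuclei 2.33% and 0.940%, with the same exact permutation p of 0.0606. The share among excitatory nuclei was 0 in Het 3.

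Single libraries decided the side of the threshold. Without WT 7 the difference was -0.566 percentage points with an exact permutation p of 0.0182, and without WT 2 it was -0.522 with an exact permutation p of 0.0485. With each nucleus thinned to 800 UMIs the means were 0.185% in WT and 0.0665% in Het, with an exact permutation p of 0.0848. That run rested on 98 WT and 26 Het members, and WT 7 and Het 3 had no members. The median depth of filtered nuclei moved alongside, with a mean of 2056 ± 125 UMIs over the 8 WT libraries (SD) and 1921 ± 105 over the 4 Het libraries (SD), and its part in the unthinned difference was not tested. The median UMIs of members averaged 3181 ± 751 over WT libraries and 3222.5 ± 766 over Het libraries (SD), a gap smaller than the spread between libraries (exact permutation test, p = 0.889).

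**Figure D1:**
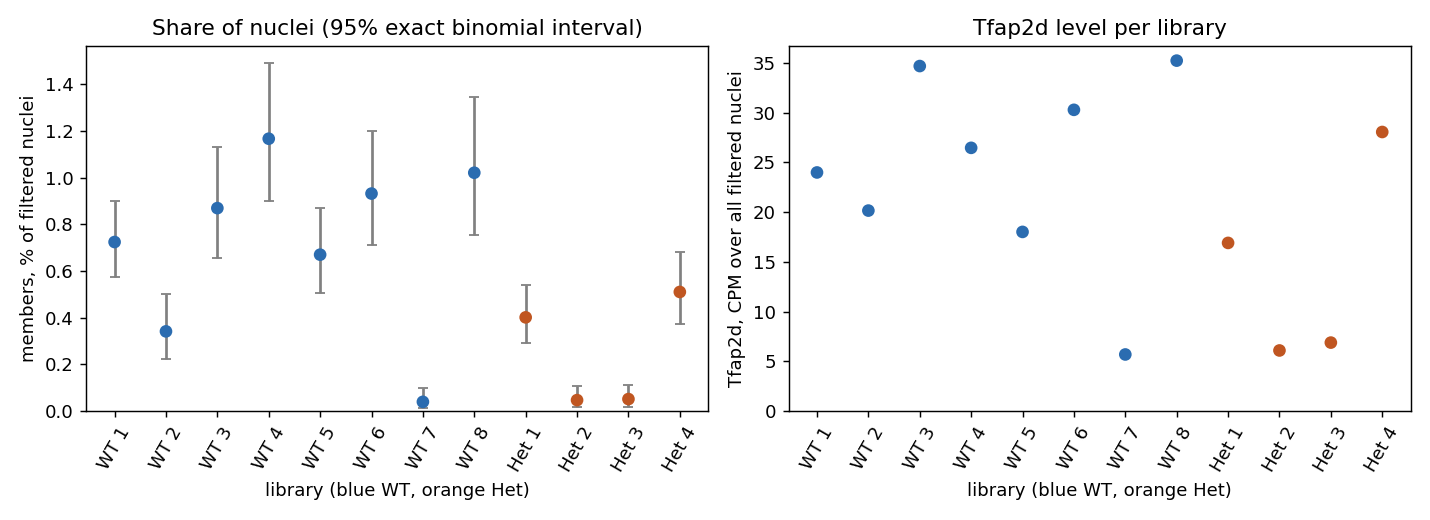
Left, members as a percentage of filtered nuclei in each library, with the exact 95% binomial interval as a bar. Right, the Tfap2d level of all filtered nuclei of a library in CPM. WT 7, Het 2 and Het 3 sit lowest in both panels, and blue WT and orange Het points overlap.

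Over all filtered nuclei Tfap2d stood at 5.68 to 35.2 CPM in WT, with a median of 25.2, and at 16.9, 6.09, 6.88 and 28.1 CPM in Het 1 to Het 4. Since membership needs a Tfap2d UMI, this level is not independent of the share of members. The WT mean was 24.3 ± 9.80 CPM and the Het mean 14.5 ± 10.3 CPM (SD over libraries). That gap did not pass the exact permutation test (p = 0.149, adjusted p = 0.299 over 4 genes). Nrp2, Piezo2 and Thsd7a had Het to WT ratios of 0.804, 0.765 and 0.932, with adjusted p of 0.331, 0.299 and 0.331 in the same exact permutation test. Members held 29.0% of the Tfap2d UMIs of filtered nuclei and were 21.3% of the nuclei with a Tfap2d UMI. Over all nuclei of a library, fewer members, less RNA in each and a difference in the other nuclei cannot be told apart.

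Among members, the targeted gene was examined first. Myt1l, a zinc-finger transcription factor of neurons on chromosome 12 from 29528384 to 29923213, stood in members at 896 to 1388 CPM in WT, with a median of 1102, and at 1047, 1156, 545 and 965 CPM in Het 1 to Het 4. Of the 4 Het values 3 lay below the WT mean, and the lowest was in Het 3, which had 6 members. The log2 difference was -0.27 (SE 0.19) with an adjusted p of 0.9997 in edgeR's quasi-likelihood test, and -0.12 in the 9 libraries. In other excitatory nuclei, those with at least 2 UMIs of the 5 excitatory genes, no Gad UMI and no membership, Myt1l averaged 1615 ± 145 CPM over WT libraries and 1872 ± 87.9 CPM over Het libraries (SD), with an adjusted p of 0.356 in edgeR. Counts over a frameshift allele do not show the level of working protein.

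No gene passed the test of genotype in members. Of 2932 genes tested, 0 were called (0%) at an adjusted p under 0.05 and a log2 difference of at least 0.2, with 100 at an unadjusted p under 0.05, which is 3.41%. DESeq2 also called 0. In simulated data built on these libraries, 54.8% of genes changed by 1 log2 unit, 98.4% of those changed by 2 and 100% of those changed by 3 were recovered. All simulated libraries shared 1 pooled profile, and the spread followed a trend over genes rather than each gene's own spread. The recovered shares therefore do not bound changes in the real members. Abi3bp, at log2 differences from -6.68 to -3.91 with a library left out, was not called. Changes under 1 log2 unit were not simulated, and the number of Het members, 100, was not varied. The 10 genes with the smallest p, none of which passed, were Tnrc18, Reln, Unc13c, Iqsec2, Fstl5, Ube2r2, Eif4a2, Abi3bp, Fat3 and Ptprg. Tnrc18, a chromatin-associated gene, stood at 224 ± 44.8 CPM in WT and 96.6 ± 31.1 in Het (log2 -0.97, SE 0.24, adjusted p = 0.837 in edgeR), with 4 of 4 Het libraries below the WT mean. Reln, the secreted protein reelin, stood at 59.8 ± 42.6 CPM in WT and 286 ± 317 in Het, of which Het 3 gave 759.

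The genotype effect was then compared between members and other excitatory nuclei by an interaction term. Of 10094 genes tested, 2 were called (0.0198%), 1 higher and 1 lower in Het members (0.00991% each). Abi3bp, an extracellular matrix gene, stood in members at 4.04, 33.6, 89.2, 173, 140.2, 30.0, 0 and 260 CPM in WT 1 to WT 8. In Het members it was at 0, 0, 0 and 7.82 CPM, the last a single UMI. The WT values spread widely and overlapped the Het values at WT 7 and WT 1. The interaction was -5.03 (SE 0.90, edgeR adjusted p = 0.000571), and -4.98 with an adjusted p of 0.0334 in the 9 libraries, where it was the 1 gene called (0.00866%). The adjusted p was 0.210 without Het 1 and 0.999 with DESeq2. Ptprg, a receptor tyrosine phosphatase, had an interaction of 1.38 (SE 0.30, edgeR adjusted p = 0.0320), with 449, 0, 1790.3 and 289 CPM in Het 1 to Het 4. Without Het 3 the interaction was 0.73 with an adjusted p of 0.9996, and in the 9 libraries 0.94 with an adjusted p of 0.814. Without WT 6, WT 7 or Het 1 its adjusted p was 0.106, 0.0757 and 0.0532.

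**Figure D2:**
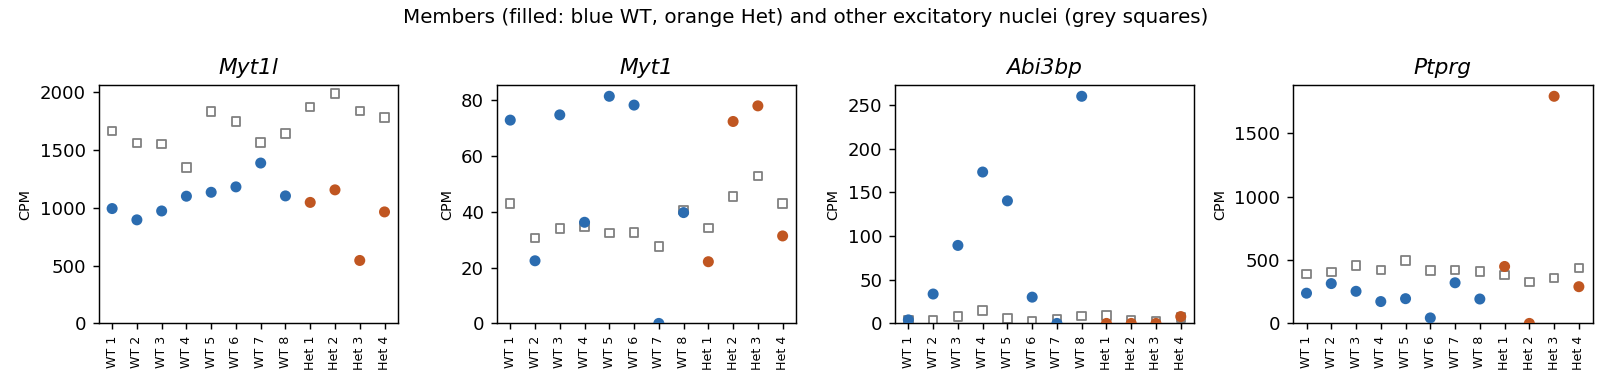
CPM of Myt1l, Myt1, Abi3bp and Ptprg by library, in members (filled points, blue WT and orange Het) and other excitatory nuclei (grey squares). Abi3bp varies from 0 to 260 CPM among WT members, and the highest Ptprg point is Het 3.

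What else distinguished these nuclei was asked by comparing members with the other excitatory nuclei of the same library, with the library as a block. The genes of the rule, Thsd7a and the 5 excitatory genes were described and not tested. The comparison nuclei had been chosen for excitatory genes, which members had not. Of 8267 genes tested, 553 were called (6.69%) at an adjusted p under 0.05 and a log2 difference of at least 1. Of these 170 were higher (2.06%) and 383 lower (4.63%). The 9 libraries gave 570 of 8457 (6.74%), 195 higher (2.31%) and 375 lower (4.43%), and 523 genes were shared, which is 94.6% of the first list and 91.8% of the second. The median log2 difference over all genes tested was -0.04.

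The 20 leading higher genes in the 9 libraries were led by Bmp6. Bmp6 was at 255 ± 105 CPM in members and 18.6 ± 6.61 in other excitatory nuclei (SD, n = 9 libraries), a log2 difference of 3.78 (SE 0.19). Galntl6 (minus strand of chromosome 8, 57774052 to 58912640) was at 9327 ± 3285 CPM against 1217 ± 165, a log2 difference of 2.82 (SE 0.12). Slit3, a ligand of Robo receptors in axon guidance, was at 518 ± 69.2 CPM against 84.6 ± 15.4 and was higher in 12 of 12 libraries. Ndst4 and Hs3st1, enzymes that sulfate heparan chains, differed by 2.49 and 2.31. Cacng3, an auxiliary subunit of AMPA receptors, differed by 2.77. Rftn1, Dchs2, Rhbdl3, Arhgap18, Pard3b, Fign, Samd4, Col5a2, Ano3, 3110099E03Rik, E130008D07Rik and Gm28756 were also among the 20 leading genes, with log2 differences from 2.23 for Ano3 to 3.25 for 3110099E03Rik. Grik1 and Sema5b complete the list. In edgeR the adjusted p of these 20 genes was at most 5.45e-10, that of E130008D07Rik. In WT 7 and Het 3, members had no UMI of Bmp6, 3110099E03Rik, Ndst4, Arhgap18, Fign, Samd4, E130008D07Rik, Hs3st1 or Gm28756. Those members held 18731 and 25694 UMIs in all, and the part of depth in these absences was not tested. The list had also been chosen without either library.

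The list set by the planned rule held genes higher in 12 of 12 libraries, and the list over 9 libraries above was added to it after values were seen. By log2 difference over 12 libraries they were led by Rhbdl3 (3.19), Slit3 (2.46), Pard3b (2.39), Col5a2 (2.22) and Neurl1a (2.13). Bcl11b, a zinc-finger transcription factor also called Ctip2, was at 470 ± 78.7 CPM in members and 129 ± 34.0 in other excitatory nuclei (SD, n = 12), a log2 difference of 1.74 (SE 0.11). Its lowest member value, 364 CPM in Het 4, was above the highest value of the other nuclei, 185 CPM. Efnb2, a ligand of Eph receptors, differed by 1.61, Itga8, an integrin subunit, by 1.75, and Dner, a Notch ligand of neurons, by 1.68. The others were Arhgap24, Tafa1, Olfm3, Camk2d, Pde1c, Plcxd3, Gm45341, Rasgef1b, Lingo2, Slc24a2 and Il1rapl1.

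**Figure D3:**
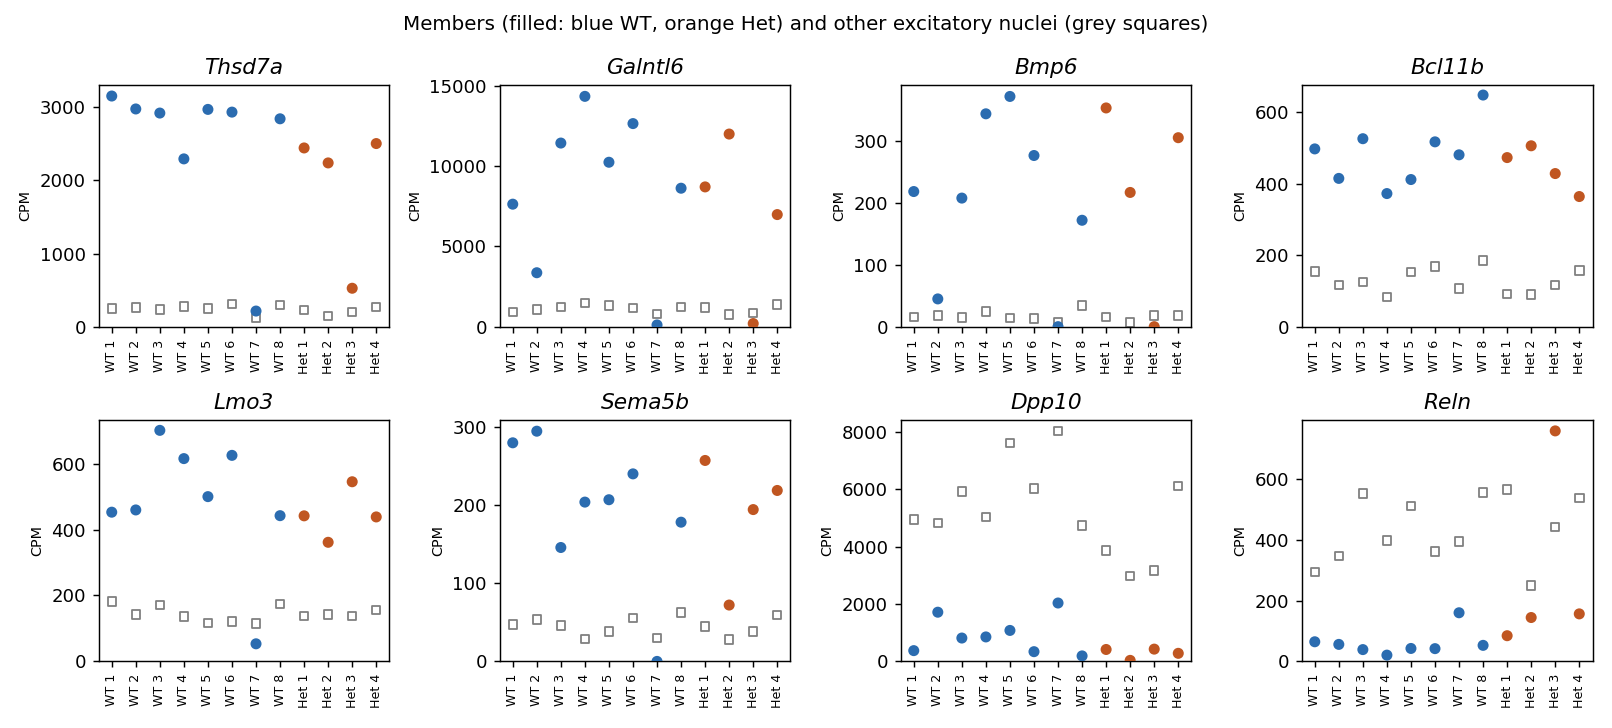
CPM of 8 genes by library in members (filled points, blue WT and orange Het) and other excitatory nuclei (grey squares). Bcl11b is higher in members of all 12 libraries, whereas the filled points of Thsd7a, Galntl6 and Bmp6 are lowest in WT 7 and Het 3.

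The leading lower genes included Dpp10 and Gpc5. Dpp10, an auxiliary subunit of Kv4 potassium channels, stood at 674 ± 494 CPM in members and 5450.3 ± 1089 in other nuclei (SD, n = 9). Gpc5, a glypican, Ccbe1, Kif26b, Adamts2 and Reln differed by -2.92, -2.92, -2.93, -2.93 and -2.95 on the log2 scale. The lower list also held Gm37717, Gm49677, A630036G19Rik and Gm49678. Gm49677 overlaps Gm49678, so their reads may not be separable. Slc26a7, Pcsk2, Etl4 and Nrp1 were lower in 12 of 12 libraries.

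**Figure D4:**
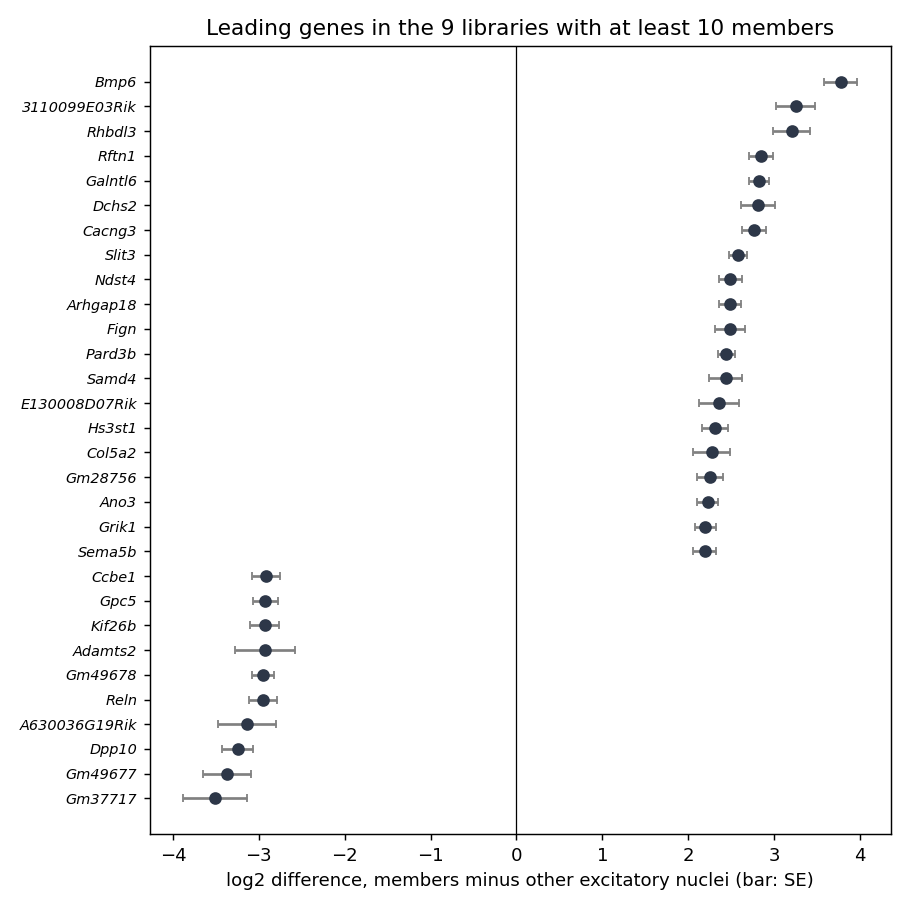
Log2 difference between members and other excitatory nuclei for the 20 leading higher genes and 10 of the leading lower genes in the 9 libraries with at least 10 members, with the standard error as a bar. The differences run from 3.78 for Bmp6 to -3.51 for Gm37717.

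Semaphorin signalling genes were examined because Nrp2 is part of the rule. Of 26 tested semaphorins, plexins and neuropilins 3 were higher and 1 lower, where 6.69% of all genes tested were called, and their median log2 difference was -0.23 against -0.04 over all genes. Sema5b, a transmembrane semaphorin, stood at 225 ± 48.0 CPM in members and 48.5 ± 10.6 in other nuclei of the 9 libraries (SD; log2 2.19). Sema3a, a secreted repellent, differed by 1.49 and Plxnd1, a plexin receptor, by 1.36. Nrp1, the other neuropilin, fell by 2.67 on the log2 scale, at 22.1 ± 17.4 CPM against 189 ± 66.5, and was lower in 12 of 12 libraries.

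Of all genes tested 2.06% were higher and 4.63% lower, and the counts below stand beside these shares. Of 21 glutamate receptor genes tested, 1 was higher and 3 lower. Grik1, a kainate receptor subunit, rose by 2.21 on the log2 scale, while Grm7 and Gria4 were among the lower genes at -1.61 and -1.11. Of 13 GABA receptor genes 1 was higher, Gabrg1 at 1.49, and 4 lower, among them Gabra4, Gabrb1 and Gabra5. Of 12 cadherins, Cdh12 (3222 ± 1381 CPM in members and 984 ± 190 in other nuclei, SD, n = 12) and Cdh20 (log2 1.06) were higher and Cdh18 (-1.68), Cdh8 (-1.60) and Cdh7 (-1.21) lower. Of the 4 mechanosensitive channels tested none was called, nor were the 8 immature neuron genes, the 7 mature neuron genes, the 2 AP-2 partners Kctd1 and Kctd15, or the 2 thrombospondin genes Thsd7b and Thbs3. Of the neuropeptide and neurotrophin genes 1 was tested, Ntf3, which differed by -3.01. Myt1l was lower in members in 12 of 12 libraries, at 1041 ± 202 CPM against 1701 ± 178 (SD, n = 12). Its log2 difference of -0.83 (SE 0.12, edgeR adjusted p = 4.67e-08) was under the size threshold of 1. Myt1 was not called, and St18 had 3 UMIs in members.

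By layer markers, where again 2.06% of all genes were higher and 4.63% lower, 0 of 6 layer 6 genes were higher and 5 lower: Zfpm2, Foxp2, Hs3st4, Ntsr1 and Tle4. Of 7 upper-layer genes none was higher and 3 were lower, Rorb and Pou3f2 among them. Of 3 layer 5 genes Bcl11b was higher and Ldb2 lower. Of 4 amygdala and piriform genes Lmo3 was higher, at 469 ± 163 CPM against 144 ± 22.5, and Rspo2 and Lhx2 were lower. Of 4 claustrum genes tested 1 was higher, Ntng2, a netrin-family gene, by 1.68, and none was lower, with a median log2 difference of 0.04 over the 4. Astroglial markers summed to 0 to 291 CPM in members and 112 to 307 CPM in other excitatory nuclei, and 0 of 3 tested were called.

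Narrower comparators were used as well. Against 5942 nuclei with at least 2 UMIs of Ntf3, Rspo2 and Mkx, 503 of 6471 genes were called (7.77%), 178 higher (2.75%) and 325 lower (5.02%). Rhbdl3 differed by 4.09, Sema5b by 3.13, Pard3b by 2.89, Lmo3 by 2.63, Rasgef1b by 2.57, Neurl1a by 2.57, Gm45341 by 2.53 and Bcl11b by 2.50. Slc26a7, Gm37717, Kif26b, Adamts2 and Dpp10 were lower. Excitatory genes had not been used to choose these nuclei. Of 6 genes of the excitatory list tested, 2 were higher in members, Slc17a6 (1.43) and Tbr1, and 2 were lower, Neurod6 (-1.03) among them, with a median log2 difference of 0.06 over the 6. Against layer 6b and subplate nuclei, with at least 2 UMIs of Nxph4, Ccn2 and Cplx3, of which there were 67 with 1 to 17 a library, 100 of 351 genes were called (28.5%), 58 higher (16.5%) and 42 lower (12%). Tafa1, Tenm4, Iqschfp, Cdh12 and Tafa2 were higher and Sdk1, Frmpd4, Tjp1, Ntrk3 and Hivep2 lower, with little depth behind the comparator.

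To see whether these genes were shared by both genotypes, the 30 genes with the largest ratio of members to other excitatory nuclei, at 100 CPM or more in members, were chosen in one genotype and scored in the other, leaving out the genes of the rule, Thsd7a and the 5 excitatory genes. The cut was the 95th percentile of other excitatory nuclei of the scored genotype. Of Het members, 75 of 100 lay above it with genes chosen in WT. Of WT members, 296 of 389 (76.1%) lay above it with genes chosen in Het. The lists shared 19 of 30 genes, among them Bmp6, Galntl6, Slit3, Sema5b, Grik1 and Pard3b. Nuclei with Tfap2d but under 2 UMIs of Nrp2 and Piezo2 passed in 19.1% of cases in Het and 22.6% in WT. These rates pool the 325 nuclei with 1 such UMI and the 1203 with none, which were not scored apart. Sema5b stood at 240 CPM in the 325, 103 in the 1203 and 220 in pooled members. Grik1 stood at 422, 123 and 545 CPM in the same order, so these genes were not particular to members. Gad-negative nuclei without Tfap2d passed in 13.5% of cases in Het and 5.65% in WT, so the score was not confined to members. In WT 7, 1 of 4 members passed. In Het 3, 5 of 6 passed, though Galntl6 and Bmp6 were low or absent there.

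**Figure D5:**
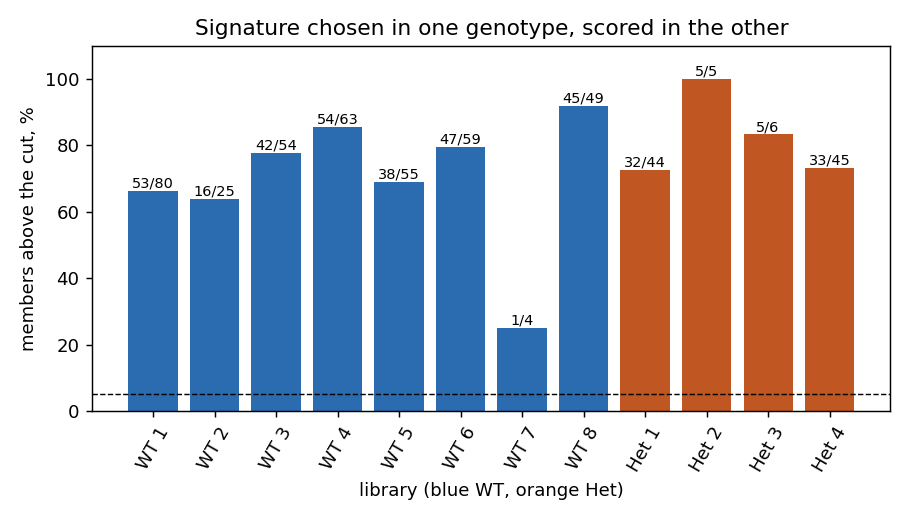
Percentage of members of each library above the cut for a 30-gene score chosen in the other genotype, with counts over the bars and a dashed line at the 5% of other excitatory nuclei that pass by construction. Libraries with at least 10 members lie between 64.0 and 91.8%.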

How the data were processed

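Nuclei of 12 libraries (8 WT, 4 Het) had been profiled by single-nucleus RNA sequencing with combinatorial barcoding, with 1 batch at this age. The authors ran the ScaleRna workflow on mm10 and deposited, for each nucleus and gene, expected counts, unnormalized values in which some UMIs are divided between genes. The labels name Seurat 4.3.0. No free RNA was subtracted and no doublet caller was run here. The unit was not named when the tests were designed, so each sum over nuclei was rounded for the count tests. Members and gene lists were chosen with earlier results of these data known.

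Counts were summed per library and class, and CPM was computed from those sums. Genes were tested with edgeR 4.0.16 (quasi-likelihood, TMM, filterByExpr, Benjamini-Hochberg; R 4.3.3) and with DESeq2 1.42.0 as an alternative. Shares and levels were tested with exact permutation tests (scipy 1.17.1) over libraries. Scripts were tested on simulated data. Named genes were the 20 called genes most raised and the 12 most lowered against other excitatory nuclei, at a mean of at least 50 CPM and in the same direction in every library, the 5 most changed either way against each comparator, and the 10 with the smallest p by genotype. The same rule over the 9 libraries with at least 10 members was added after seeing values. Of 55335 gene identifiers 54587 matched GENCODE M21. The sources used here do not say whether counting used strand. Same-numbered libraries of a sex were not paired in the main tests. The correlations of their deviations ran from -0.09 to 0.09, but with 5 and 6 members in Het 2 and Het 3 these cannot exclude pairing. Some genes that met these rules are not reported here.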

Additional observations from a re-analysis of the deposited data

Results flagged for a closer look

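Of 32 groups of libraries examined for a value far from the rest, 5 held one. The criterion used flags about 1 in 20 groups by chance where values are independent and normal. That rate was not established here, since the genes had been picked for small p and 3 libraries had 4 to 6 members. In members, Tnrc18 reached 320.3 CPM, Reln 160.2 CPM and Iqsec2 160.2 CPM in 1 WT library, WT 7, which had 4 members. Reln reached 759 CPM in Het 3, which had 6 members. Abi3bp was at 7.82 CPM in Het 4, a single UMI, and at 0 in the other Het libraries. The genotype effect was called as differing between members and other excitatory nuclei, by the interaction term in edgeR, for Abi3bp (log2 -5.03) and Ptprg (log2 1.38). Neither was called with DESeq2. Abi3bp was not called without Het 1, and Ptprg was not called without Het 3 or in the 9 libraries with at least 10 members.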

How the results depend on the processing

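The difference in member share between Het and WT, -0.468 percentage points, kept its sign under every alternative run and passed an exact permutation p of 0.05 in 4. With at least 2 Tfap2d UMIs it was -0.340 (p = 0.0444, exact permutation test), and with at least 3 UMIs of Nrp2 and Piezo2 it was -0.334 (p = 0.0485, exact permutation test). With a library left out it ran from -0.566 to -0.400, with p from 0.0182 to 0.145 in the exact permutation test, and passed without WT 2 or WT 7. As a replicate block the 4 pairs differed by -0.464 on average, with an exact permutation p of 0.125, the smallest that 4 pairs allow. In male libraries alone the level over all nuclei differed by -14.7 CPM for Tfap2d and -16.2 CPM for Nrp2. Each had an exact permutation p of 0.0357, not adjusted, the smallest that 5 WT and 3 Het libraries allow. This choice leaves out WT 7, the lowest WT library for both genes, and Het 4, the highest Het library for both. The median UMIs of members differed by 41.2, and from -329 to 252 with a library left out.

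By genotype in members, 0 genes were called under the block, DESeq2 and each library left out, and 11 without the filter on low counts. Against other excitatory nuclei the 553 calls became 1039 without that filter and 1380 with all Gad-negative nuclei as comparator. They ran from 528 to 567 with a library left out. The 2 interaction calls became 0 with DESeq2, 1 in the 9 libraries with at least 10 members, and 1 to 4 with a library left out. The cause was not tested. The number of member nuclei was 100 in Het and 389 in WT libraries.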
